A study of Homo sapiens with 6 samples.

Results

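The 46 genes described here encode proteins of the centromere, the kinetochore, the spindle checkpoint and the chromosomal passenger complex. They were chosen by symbol, from what their products are known to do, but with earlier results of these data known. All 46 were found among the 35322 gene symbols of the deposited count matrix. RNA came from 22Rv1, an established human prostate carcinoma cell line, grown in serum-containing medium, and the labels list no treatment beyond the knockdown. The study's methods describe knockdown with lentiviral shRNA vectors and selection in puromycin, which stayed in the medium of infected cells. The 6 libraries comprised 2 of control cells, 2 of a first knockdown of the chromatin reader ZMYND11 (ZMYND11 kd1, here kd1) and 2 of a second one (ZMYND11 kd2, here kd2). The sample labels describe the controls as wild type, whereas a figure legend of the study mentions control shRNAs, and whether the control cells carried a vector and were selected therefore remains unresolved. If they were not, infection and selection cannot be told apart from the knockdown. Neither source ties an shRNA to a knockdown or says whether the libraries of a group came from separate cultures. The p-values below therefore measure only the spread between libraries, pooled over the conditions.

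The kinetochore is the protein structure that is built on each centromere and holds the chromosome on spindle microtubules during mitosis. Its foundation is chromatin with the histone H3 variant CENPA, on which the constitutive centromere-associated network (CCAN) sits through the whole cell cycle. The Knl1, Mis12 and Ndc80 complexes form the outer layer that binds microtubules, and kinetochores without proper attachment recruit BUB and MAD proteins, which inhibit the anaphase-promoting complex. The chromosomal passenger complex, with the kinase AURKB, releases faulty attachments. Many of these genes are expressed mainly in G2 and mitosis, and genes of that class are known for a promoter element named the cell cycle genes homology region (CHR), which the MuvB protein core binds as part of the repressive DREAM complex or of the activating MYBL2 and FOXM1 complexes.

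The libraries held from 26844128 to 38193748 counts. ZMYND11 itself had 140.7 and 134.6 CPM (counts scaled by library size and TMM factor) in control cells, 27.7 and 26.1 in kd1, and 21.6 and 22.7 in kd2. Of the prostate luminal markers, KLK3 had 40.6 and 39.2 CPM in control cells, 4.33 and 4.09 in kd1, and 7.11 and 8.47 in kd2. KRT8 had 317.3 and 312.3 CPM in control cells, 673.0 and 713.3 in kd1, and 390.7 and 353.5 in kd2. Of 9 markers of other cell types, DES was at 0 in every library, and their summed level was 25.3 to 26.0 CPM in control cells, 76.6 to 77.6 in kd1 and 37.5 to 39.8 in kd2. Most of that sum was COL1A1, without which it lay between 1.51 and 7.39 CPM in every library. The part of this shift in the values below was not tested. The low-count filter left 16510 genes for testing, all 46 members among them, and 40 members held at least 10 counts in every library. None of the 46 had the same counts as another gene in all libraries, but 5 share exon sequence with another annotated gene on the same strand and 14 with one on the opposite strand. Whether reads were counted by strand is not given in the sources used here, so reads of such pairs could be mixed.

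Most of the 46 genes had far less RNA in both knockdowns than in control cells. Counts of the 46 together made up 0.250% and 0.252% of the control libraries, 0.0519% and 0.0523% of the kd1 libraries, and 0.0772% and 0.0764% of the kd2 libraries. In bulk RNA, a smaller share of cells that express these genes and less RNA in each such cell cannot be told apart. By edgeR's quasi-likelihood test, called at an adjusted p under 0.05, 41 members were lower in kd1, where 39.8% of all genes tested were called lower, and 38 were lower in kd2, where the share over all genes was 36.9%. Another 3 members were higher in kd1 and 2 in kd2, against 38.2% and 36.5% of all genes tested. The median log2 fold change of the 46 was -3.91 in kd1 and -2.73 in kd2, while the median over all genes tested was -0.03 in both.

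Large falls were common among them. A fall of more than 8-fold was called for 27 members in kd1 and 20 in kd2, compared with 4.66% and 3.75% of all genes tested, and all 20 also fell by more than 8-fold in kd1. The 37 members called lower in both knockdowns, a class that holds 27% of all genes tested, were also those whose 4 knockdown libraries all lay below both control libraries, as 33% of all genes tested did. Since both comparisons use the same control libraries, they are not independent of each other. In kd1, 28 members were under 5 CPM in both libraries, and in kd2 25 were, compared with 2 in control cells, OIP5 and MAD1L1. The 9 members not lower in both knockdowns were CENPQ and CENPT of the CCAN, MIS12, NSL1 and PMF1 of the Mis12 complex, SKA2, ZW10, BUB3 and MAD1L1.

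**Figure D1:**
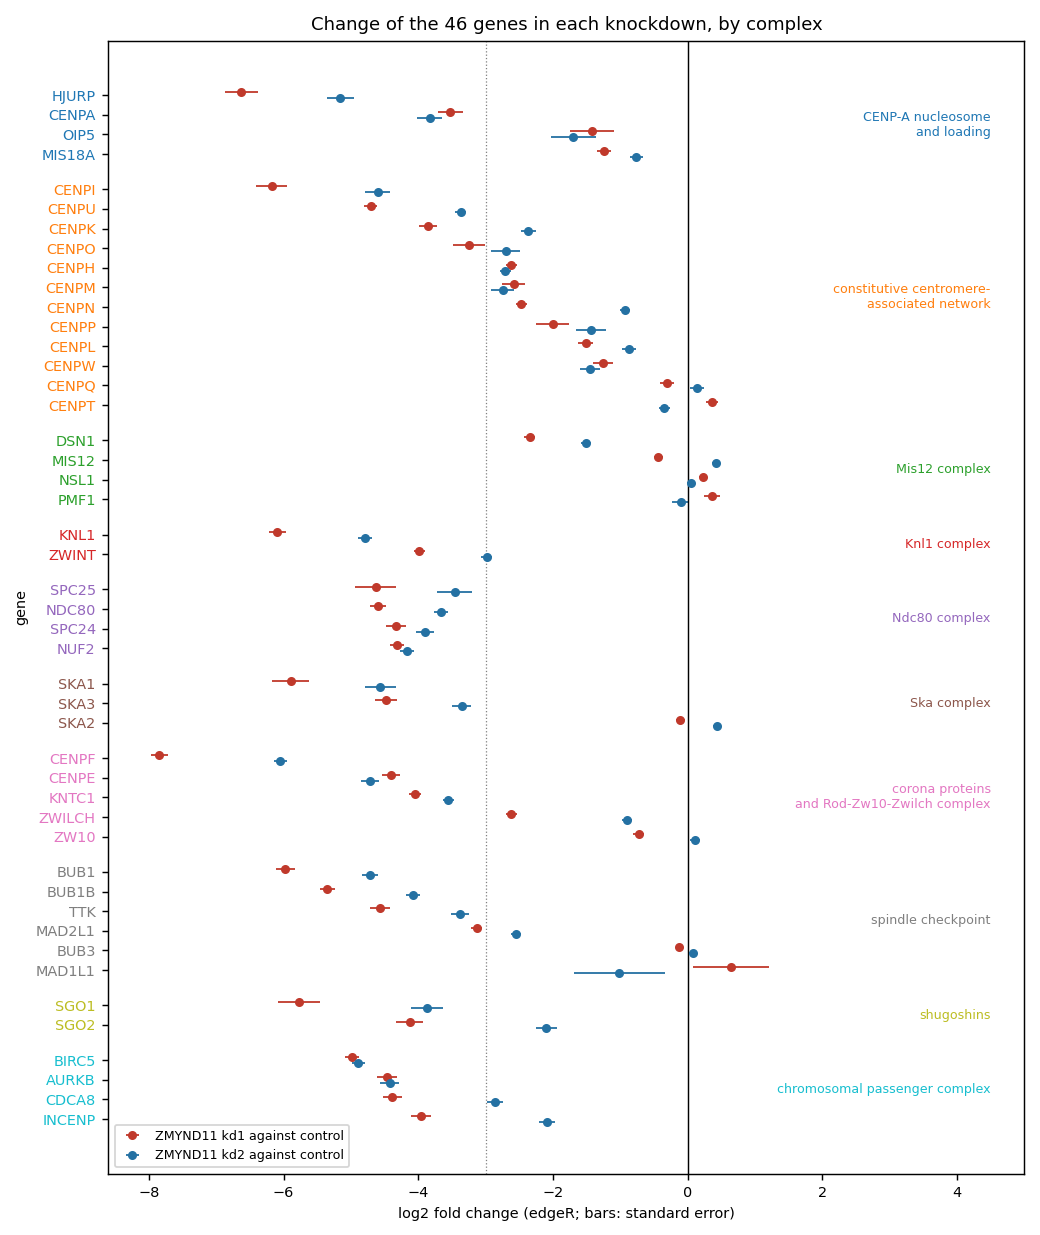
Log2 fold change of each of the 46 genes against control cells in kd1 (red) and kd2 (blue), with bars for the standard error from edgeR, grouped by complex. The dotted line marks an 8-fold fall, which 27 genes passed in kd1 and 20 in kd2, and the genes near 0 are spread over 5 of the 10 groups.

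Promoters of 37 members, 43 promoters in all, were found in RefSeq (GRCh38.p14), each from 250 bases before to 50 bases after a transcription start. The CHR letters TTTGAA, searched on both strands, stood in 39.5% of the member promoters and in 15.2% of all promoters of that length. Those of the variant TTCGAA stood in 11.6% and 1.45%, and CCAAT, the letters that NF-Y binds, in 67.4% and 34.6%. E2F-type letters were rare in both sets, with TTTCGCG in 2.33% of member promoters and 1.32% of all, and TTTGGCG in 6.98% and 1.92%. At least one of the CHR sequences stood in 48.8% of the member promoters and in 16.4% of all.

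Among members, the CHR letters lay close to the start. In a window of 50 bases on either side of the start, chosen after the values were seen, 19 of the 43 member promoters (44.2%) held TTTGAA or TTCGAA, against 5.01% of all promoters. Over the whole promoter, 19 of the 20 members with either sequence were lower in both knockdowns, and 10 of the 17 without, beside 27% of all genes tested. The share lower in both among all genes with these letters was not computed. The 19 promoters with the letters near the start belonged to 18 members, and all 18 were lower in both knockdowns, with a median log2 fold change of -4.35 in kd1 and -3.40 in kd2. Of the 19 matched members without the letters there, 11 were lower in both, and the medians were -2.35 and -1.44. No promoter of the matched members outside the lower class held the letters in that window, although 1 of its 9 promoters, that of ZW10, held TTTGAA 224 bases before the start. Since the window was chosen with the values known and leaves this match out, the count of 18 follows partly from that choice. CCAAT was about as frequent in promoters of members lower in both (67.6%) as in those of the other members (66.7%). A match of this kind is a description of letters and does not show that a factor binds there.

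**Figure D2:**
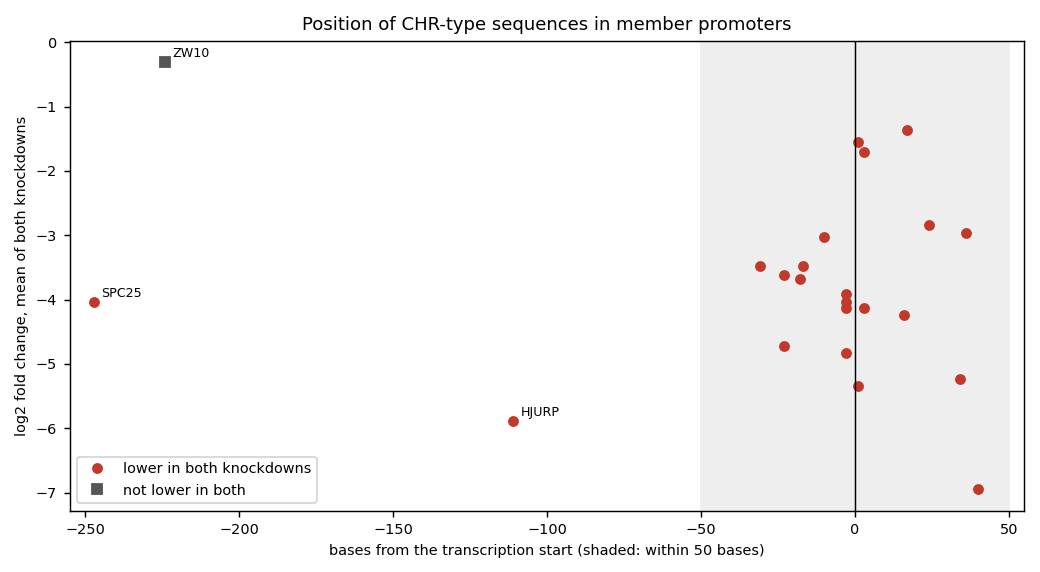
Distance of each TTTGAA or TTCGAA from the transcription start in member promoters (x axis, bases) against the mean log2 fold change of the gene in both knockdowns (y axis). Nearly all matches lie within the shaded 50 bases on either side of the start and belong to genes lower in both knockdowns (red circles), while the square is ZW10.

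To show these letters in place, 120 bases around the start, from 90 before to 30 after, are printed for 10 members, which were chosen after their values were seen. In the first 7, all lower in both knockdowns, TTTGAA or TTCGAA (or TTCAAA, the same element on the other strand) stands in capitals near the start, and CCAAT (or ATTGG) is also in capitals. The last 3 are from SKA2, CENPQ and PMF1, not lower in both, whose windows hold CCAAT but neither CHR sequence. None of the 11 matched members that were lower in both without the letters near the start is printed. Among those, AURKB had log2 fold changes of -4.46 and -4.43, and CENPU had -4.70 and -3.37. CENPA lies at chr2:26785966-26786085, plus strand, CENPN at chr16:81007124-81007243, plus strand, NDC80 at chr18:2571467-2571586, plus strand, SKA3 at chr13:21176523-21176642, minus strand, and BUB1 at chr2:110678034-110678153, minus strand. BUB1B lies at chr15:40160979-40161098, plus strand, SGO1 at chr3:20186177-20186296, minus strand, SKA2 at chr17:59155157-59155276, minus strand, CENPQ at chr6:49463280-49463399, plus strand, and PMF1 at chr1:156212917-156213036, plus strand.
CENPA: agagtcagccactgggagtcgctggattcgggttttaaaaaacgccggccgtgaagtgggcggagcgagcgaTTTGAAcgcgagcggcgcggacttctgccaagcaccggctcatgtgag
CENPN: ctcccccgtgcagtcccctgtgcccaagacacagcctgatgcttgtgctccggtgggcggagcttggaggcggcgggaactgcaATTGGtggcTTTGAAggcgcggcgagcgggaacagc
NDC80: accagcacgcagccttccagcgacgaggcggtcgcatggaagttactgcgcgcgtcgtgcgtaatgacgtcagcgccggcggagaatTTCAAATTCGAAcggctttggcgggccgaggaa
SKA3: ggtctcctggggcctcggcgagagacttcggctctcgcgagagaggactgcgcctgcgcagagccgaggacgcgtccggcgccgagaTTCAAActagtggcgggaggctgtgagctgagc
BUB1: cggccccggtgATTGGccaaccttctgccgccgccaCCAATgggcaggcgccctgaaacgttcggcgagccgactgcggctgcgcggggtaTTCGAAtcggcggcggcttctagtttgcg
BUB1B: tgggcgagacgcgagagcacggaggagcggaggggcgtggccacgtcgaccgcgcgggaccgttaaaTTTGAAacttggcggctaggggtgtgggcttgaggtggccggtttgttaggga
SGO1: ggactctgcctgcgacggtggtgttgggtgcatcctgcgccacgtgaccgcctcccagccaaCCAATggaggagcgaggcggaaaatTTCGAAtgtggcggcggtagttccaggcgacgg
SKA2: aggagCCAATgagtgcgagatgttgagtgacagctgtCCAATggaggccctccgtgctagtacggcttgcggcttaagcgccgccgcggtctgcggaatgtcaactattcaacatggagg
CENPQ: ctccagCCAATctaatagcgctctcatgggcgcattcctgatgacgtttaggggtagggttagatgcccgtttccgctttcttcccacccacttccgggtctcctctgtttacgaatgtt
PMF1: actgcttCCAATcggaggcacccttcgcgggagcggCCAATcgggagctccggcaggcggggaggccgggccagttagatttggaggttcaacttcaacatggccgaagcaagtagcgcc

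CENPA and the factors that load it onto centromeres were lower in both knockdowns, 4 of 4 in each, beside 27% of all genes tested lower in both. CENPA, the histone H3 variant itself, had 17.2 and 16.3 CPM in control cells, 1.24 and 1.69 in kd1, and 0.980 and 1.37 in kd2. HJURP, the chaperone that deposits it, fell from 43.6 and 44.5 CPM to 0.235 and 0.676 in kd1 and to 0.812 and 1.66 in kd2. These libraries do not overlap between control cells and either knockdown, and for HJURP the log2 fold changes were -6.63 (SE 0.25, adjusted p = 6.71e-12, edgeR) and -5.16 (SE 0.20, adjusted p = 2.33e-11). The licensing factors moved less. MIS18A, which marks centromeres for loading, went from 28.4 and 30.4 CPM to 11.7 and 13.1 in kd1 and to 18.7 and 16.0 in kd2. OIP5, its partner in the Mis18 complex, was low in control cells, at 2.86 and 2.16 CPM, and fell with log2 fold changes of -1.42 and -1.70, but 63.2% of its exon sequence overlaps the antisense gene OIP5-AS1.

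Within the CCAN, 11 of 12 genes were lower in each knockdown, beside 39.8% of all genes tested in kd1 and 36.9% in kd2. The falls covered a wide range of sizes. CENPI, part of the module with CENPH, CENPK and CENPM, fell most, from 18.0 and 19.0 CPM to 0.324 and 0.169 in kd1 and to 0.700 and 0.817 in kd2. Its log2 fold changes were -6.18 (SE 0.23, adjusted p = 7.15e-12, edgeR) and -4.60 (SE 0.19, adjusted p = 3.09e-11). CENPH and CENPM of the same module had -2.62 and -2.58 in kd1, and -2.71 and -2.75 in kd2. CENPK had -3.86 in kd1, between CENPI and the others, and -2.37 in kd2, the smallest fall of the 4.

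The CENPO, CENPP, CENPQ and CENPU subunits, which are bound to each other in one module, did not share a size of change. CENPU, the subunit that anchors the kinase PLK1, had log2 fold changes of -4.70 and -3.37, CENPO was 9.48-fold and 6.49-fold lower, and CENPP, a low gene at 4.30 and 5.09 CPM in control cells, had -2.01 and -1.44. CENPQ had 15.9 and 18.7 CPM in control cells, 14.1 and 13.8 in kd1, and 18.2 and 20.1 in kd2. The kd1 libraries of CENPQ were just under both controls, and those of kd2 overlapped them. Its log2 fold change of -0.31 in kd1 (SE 0.11, adjusted p = 0.0156, edgeR) was lost without the second control library, at -0.19 (adjusted p = 0.206), or without either kd1 library. In kd2 the value of 0.14 (SE 0.10) was not called, and it turned to -0.27 and was called lower (adjusted p = 0.0284, edgeR) once GC content and length were corrected for, so that CENPQ would then be lower in both knockdowns.

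CENPL and CENPN bind each other, and CENPN reads the CENPA nucleosome. CENPN fell from 74.4 and 75.7 CPM to 13.5 and 13.6 in kd1 but only to 37.5 and 41.4 in kd2, and CENPL from 25.0 and 23.0 CPM to 8.57 and 8.21 and to 12.1 and 14.3. CENPT and CENPW are histone-fold partners on the route to the Ndc80 complex, and they did not move together. CENPW was lower in both knockdowns, with log2 fold changes of -1.26 and -1.46. CENPT had 46.2 and 47.5 CPM in control cells, 61.2 and 59.1 in kd1, and 40.8 and 33.0 in kd2.

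CENPT was thus above both controls in kd1 and below them in kd2. Its log2 fold changes were 0.36 (SE 0.08, adjusted p = 0.00128, edgeR) and -0.34 (SE 0.09, adjusted p = 0.00243). The rise in kd1 was not called with library totals alone, at 0.01 (adjusted p = 0.937), or once GC content and length were corrected for, at 0.16 (adjusted p = 0.0779). Of its exon sequence, 6.7% overlaps THAP11 on the opposite strand, a gene with 588 and 615 counts in control cells, 2007 and 1761 in kd1 and 1201 and 1071 in kd2. TSNAXIP1, with at most 86 counts in a library, and NUTF2 overlap another 10.5% and 2.9% on that strand, and the part of these overlaps in the values of CENPT was not tested.

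The Mis12 complex, the 4-subunit hub that joins the CCAN to the outer kinetochore, held 3 of the 9 members that were not lower in both. DSN1, the subunit whose phosphorylation by AURKB opens the complex to CCAN binding, went from 57.5 and 57.9 CPM to 11.6 and 11.0 in kd1 and to 20.4 and 20.3 in kd2. Its log2 fold changes were -2.35 (SE 0.08, adjusted p = 2.96e-12, edgeR) and -1.51 (SE 0.07, adjusted p = 2.06e-10). MIS12 had 44.7 and 44.9 CPM in control cells, 33.1 and 33.2 in kd1, and 61.2 and 58.8 in kd2. It was therefore called lower in one knockdown and higher in the other, by -0.43 (SE 0.07, adjusted p = 2.86e-05, edgeR) and 0.42 (SE 0.06, adjusted p = 3.04e-05), without overlap of the groups. DERL2, on the opposite strand, overlaps 9.5% of its exon sequence.

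NSL1 and PMF1 were called higher in kd1 and not called in kd2, with calls that depended on the processing. NSL1 had 58.6 and 60.2 CPM in control cells, 69.7 and 70.2 in kd1, and 60.8 and 62.8 in kd2. Its log2 fold change in kd1, 0.23 (SE 0.06, adjusted p = 0.00224, edgeR), turned to -0.12 with library totals alone. PMF1 had 17.6 and 18.8 CPM in control cells, 20.6 and 26.4 in kd1, and 18.4 and 15.4 in kd2. The call of PMF1 in kd1, 0.36 (SE 0.12, adjusted p = 0.0133, edgeR), rested on the second library of that knockdown, without which it was 0.18 (adjusted p = 0.231), was also lost without the first control library (0.31, adjusted p = 0.0894) and with library totals alone (0.0086, adjusted p = 0.950), and turned to -0.17 once GC content and length were corrected for. In kd2, NSL1 was called higher once GC content and length were corrected for (0.35, adjusted p = 2.4e-05, edgeR), and PMF1 was called lower with library totals alone (-0.28, adjusted p = 0.0484). The exons of PMF1 are shared over 23.3% of their length with PMF1-BGLAP, which had no counts in any library.

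Both genes of the Knl1 complex and all 4 of the Ndc80 complex fell strongly in both knockdowns, where 27% of all genes tested were lower in both. KNL1, the scaffold that BUB3 and the BUB kinases dock on, went from 63.0 and 64.3 CPM to 1.00 and 0.844 in kd1 and to 2.32 and 2.25 in kd2. The log2 fold changes of KNL1 were -6.09 (SE 0.12, adjusted p = 3.43e-14, edgeR) and -4.80 (SE 0.11, adjusted p = 1.21e-13). ZWINT, its partner, had 102.1 and 107.1 CPM in control cells, 6.33 and 6.92 in kd1, and 13.6 and 12.8 in kd2. Per kilobase of exon, ZWINT was the highest of the 46 genes in control cells.

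The 4 subunits of the Ndc80 complex fell by similar amounts. NDC80 and NUF2, whose heads bind the microtubule, had log2 fold changes of -4.60 and -4.31 in kd1, and SPC24 and SPC25, which dock on the inner kinetochore, had -4.33 and -4.63. In kd2 the 4 values were -3.66, -4.17, -3.90 and -3.46. NUF2 had 2193 and 2243 counts in control cells, 136 and 95 in kd1, and 148 and 132 in kd2, so its knockdown libraries overlapped each other and lay far below control cells. SPC25, the lowest of the 4, had 179 and 210 counts in control cells, 10 and 6 in kd1, and 20 and 20 in kd2.

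The Ska complex, which tracks microtubule ends beside Ndc80, was split. SKA1 fell from 13.8 and 14.7 CPM to 0.147 and 0.338 in kd1 and to 0.476 and 0.730 in kd2. SKA3, the subunit that meets Ndc80, went from 30.9 and 26.6 CPM to 1.44 and 1.11 and to 3.02 and 2.60. SKA2, the third subunit, had 60.5 and 61.3 CPM in control cells, 54.1 and 59.1 in kd1, and 84.0 and 81.0 in kd2.

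All SKA2 libraries of kd2 were thus above the controls, with a log2 fold change of 0.44 (SE 0.06, adjusted p = 1.81e-05, edgeR), while those of SKA1 and SKA3 were below, with -4.56 (SE 0.23) and -3.35 (SE 0.14). In kd1 SKA2 was not called at -0.11 (SE 0.06, adjusted p = 0.140, edgeR), although it was called lower with library totals alone (-0.46, adjusted p = 7.95e-06) and among genes with at least 10 counts in every library (-0.15, adjusted p = 0.0401). Of the promoters printed above, that of SKA3 holds TTCAAA at the start, and that of SKA2 holds CCAAT only. Both were picked for printing after their values were seen, and a link between these letters and the changes was not tested.

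Among the corona proteins and the Rod-Zw10-Zwilch complex, CENPF, a large coiled-coil protein of the fibrous corona at chr1:214603185-214664574, fell most of all 46 genes. It had 133.0 and 143.6 CPM in control cells, 0.618 and 0.574 in kd1, and 1.88 and 2.31 in kd2. This left 0.435% of the control level in kd1 (log2 fold change -7.84, SE 0.12, adjusted p = 5.69e-15, edgeR) and 1.51% in kd2 (-6.05, SE 0.10, adjusted p = 1.28e-14). CENPE, the kinesin that carries chromosomes to the spindle equator, fell too, with log2 fold changes of -4.41 and -4.72.

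The 3 subunits of the Rod-Zw10-Zwilch complex, which brings dynein and MAD proteins to the kinetochore, changed to different extents. KNTC1, the Rod subunit, fell from 168.3 and 163.6 CPM to 10.9 and 8.95 in kd1 and to 13.5 and 14.8 in kd2. ZWILCH fell from 54.4 and 52.5 CPM to 8.65 and 8.78, but only to 28.9 and 28.2 in kd2. ZW10 had 34.0 and 32.0 CPM in control cells, 20.0 and 19.8 in kd1, and 36.2 and 35.0 in kd2. ZW10, which also works in membrane traffic outside mitosis, was thus lower in one knockdown (-0.73, SE 0.08, adjusted p = 6.72e-07, edgeR) and not called in the other (0.11, SE 0.07, adjusted p = 0.195).

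**Figure D3:**
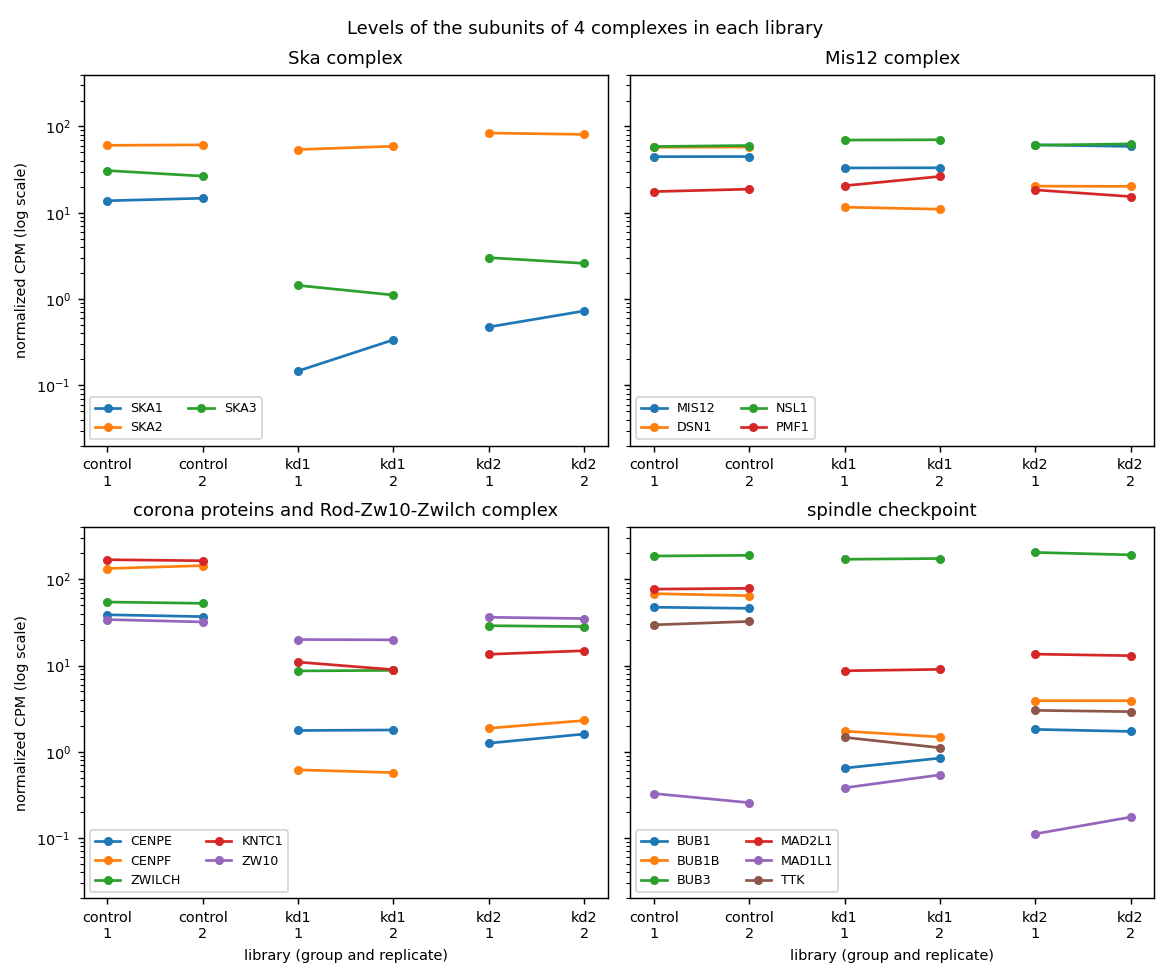
Normalized CPM on a log scale in each of the 6 libraries, with a line joining the 2 libraries of a condition. Panels show the Ska complex, the Mis12 complex, the corona and Rod-Zw10-Zwilch genes and the spindle checkpoint. SKA2 lies at 60.5 and 61.3 CPM in control cells, just below that in kd1 and above it in kd2, at 84.0 and 81.0, while SKA1, DSN1, CENPF and BUB1 lie below their controls in all 4 knockdown libraries.

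In the spindle checkpoint, 4 of 6 genes were lower in both knockdowns, beside 27% of all genes tested. BUB1, a kinase that marks centromeres and recruits other checkpoint proteins, went from 47.4 and 45.9 CPM to 0.648 and 0.844 in kd1 and to 1.82 and 1.72 in kd2, with log2 fold changes of -5.97 (SE 0.14, adjusted p = 1.17e-13, edgeR) and -4.72 (SE 0.12, adjusted p = 4.24e-13). BUB1B, which encodes BubR1 of the mitotic checkpoint complex, had -5.35 and -4.08, and the kinase gene TTK had -4.57 and -3.38. MAD2L1, the Mad2 protein that binds CDC20, had -3.13 and -2.55. BUB3, the WD40 protein that both BUB1 and BUB1B need for reaching KNL1, had 185.6 and 189.1 CPM in control cells, 170.1 and 173.6 in kd1, and 204.2 and 191.3 in kd2.

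BUB3 thus kept 91.7% of its control level in kd1 and stood at 106% of it in kd2. The call in kd1, -0.12 (SE 0.05, adjusted p = 0.0450, edgeR), was lost under 8 of the alternatives and turned to 0.34 (adjusted p = 2.78e-05) once GC content and length were corrected for. The value in kd2, 0.08 (SE 0.05, adjusted p = 0.196, edgeR), was not called, but it was called higher once GC content and length were corrected for (0.19, adjusted p = 0.00556) and without the second kd2 library (0.13, adjusted p = 0.0158). MAD1L1, the Mad1 protein that holds Mad2 at the kinetochore, had only 10 and 8 counts in control cells, 13 and 16 in kd1, and 4 and 6 in kd2, and a difference from control cells was not detectable at this depth. The annotation used here gives MAD1L1 43.2% of its exon sequence in common with another gene on the same strand, so reads of the shared part may not have been counted for it.

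Both shugoshins, which protect centromeric cohesin, and all 4 genes of the chromosomal passenger complex fell in both knockdowns, where 27% of all genes tested were lower in both. SGO1 had 323 and 323 counts in control cells, 10 and 2 in kd1, and 26 and 24 in kd2, with log2 fold changes of -5.77 (SE 0.31) and -3.87 (SE 0.24). SGO2 went from 14.6 and 14.7 CPM to 0.706 and 0.980 in kd1 and to 3.78 and 3.07 in kd2. BIRC5, survivin, the small subunit that brings the passenger complex to centromeres, fell from 106.5 and 104.4 CPM to 3.50 and 3.14 and to 3.95 and 3.15. Its log2 fold changes were -4.98 (SE 0.10, adjusted p = 3.43e-14, edgeR) and -4.89 (SE 0.10, adjusted p = 5.74e-14).

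AURKB, the kinase of the complex, had log2 fold changes of -4.46 and -4.43, and CDCA8, borealin, had -4.38 and -2.86. INCENP, the scaffold that activates AURKB, had 40.1 and 38.2 CPM in control cells, 2.83 and 2.16 in kd1, and 8.06 and 10.4 in kd2. The 4 subunits therefore fell to a like extent in kd1 and less so in kd2, where BIRC5 and AURKB remained low and INCENP and CDCA8 were higher.

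The spread of levels within a group of genes differed between control cells and the knockdowns, wider in some groups and narrower in others. RPKM is the CPM divided by the exon length in kilobases. In RPKM, the highest and lowest subunit of the Ska complex were 3.83-fold apart in control cells, 209.4-fold in kd1 and 122.7-fold in kd2. SKA2 was the highest and SKA1 the lowest each time. SKA1 had only 5 and 10 counts in kd1 and 17 and 25 in kd2, so these large values are imprecise. For the Knl1 complex the spread in RPKM went from 7.09-fold to 31.0-fold and 24.9-fold. The corona and Rod-Zw10-Zwilch genes, a mixed group rather than a single complex, went from 3.85-fold to 142.8-fold and 84.6-fold. Their extremes were ZW10 and CENPF in kd1 and ZW10 and CENPE in kd2. CENPF and CENPE are not subunits of the Rod-Zw10-Zwilch complex. Of its subunits, KNTC1 had 14.6 RPKM in control cells, 0.879 in kd1 and 1.25 in kd2. ZWILCH had 11.0, 1.80 and 5.89, and ZW10 had 11.3, 6.83 and 12.2. In the Ndc80 complex the spread was 6.21-fold, 7.89-fold and 3.80-fold, and in the chromosomal passenger complex 3.15-fold, 1.71-fold and 2.41-fold. In the Mis12 complex it narrowed, from 4.92-fold to 2.54-fold and 4.26-fold. In the spindle checkpoint it was 543.7-fold, 316.8-fold and 1171.9-fold, with MAD1L1, a gene of few counts, the lowest each time. The CENPA loading genes had 8.31-fold, 61.4-fold and 31.6-fold. The CCAN had 79.2-fold, 301.3-fold and 101.2-fold, and the shugoshins 1.21-fold, 2.75-fold and 2.83-fold.

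In control cells the highest members by RPKM were ZWINT (44.0), CENPH (39.9), BIRC5 (27.6) and BUB3 (22.9). In kd1 the order was BUB3 (21.0), SKA2 (17.5), CENPT (10.6) and MIS12 (10.5), and in kd2 it was SKA2 (25.5), BUB3 (24.2), MIS12 (19.0) and ZW10 (12.2). The 9 members that were not lower in both held 21.0% and 21.1% of all member counts in the control libraries, 76.0% and 76.3% in kd1, and 67.2% and 66.1% in kd2. Since these 9 were picked for not falling in both, a larger share follows from the choice of genes and is given only as a description. BUB3 alone went from 8.40% and 8.45% to 29.2% and 29.0% and to 26.2% and 25.4%.

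The falls were smaller in kd2 than in kd1 for most members. Compared directly, 30 members were called higher in kd2 than in kd1 and 4 lower, where 34.9% and 33.8% of all genes tested were called, and the median difference was 0.74 over the members and 0.02 over all genes tested. Of the 37 members lower in both, 25 were higher in kd2, none were lower, and 12 were not called. ZMYND11 was itself lower in kd2 than in kd1, by -0.28 (SE 0.07, adjusted p = 0.00265, edgeR).

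The largest differences in favour of kd2 were in both shugoshins, INCENP, CENPF and ZWILCH. SGO2 was higher there by 2.03 on the log2 scale (SE 0.23, adjusted p = 1.71e-06, edgeR), SGO1 by 1.90 (SE 0.47, adjusted p = 0.00223), and INCENP by 1.87 (SE 0.16, adjusted p = 1.15e-07). CENPF and ZWILCH were higher by 1.80 (SE 0.22) and 1.71 (SE 0.08). HJURP was higher by 1.47 (SE 0.41, adjusted p = 0.00582, edgeR), but without the first kd1 library this was 0.86 (adjusted p = 0.0962) and without the second kd2 library 0.88 (adjusted p = 0.0654), and DESeq2 gave 1.45 (adjusted p = 0.0505). The value for SKA1, 1.33, fell to 0.82 (adjusted p = 0.160, edgeR) and 1.00 (adjusted p = 0.104) without the same libraries, and for SPC25, 1.17 (adjusted p = 0.0231) became 0.95 (adjusted p = 0.114) without the second kd1 library and 1.15 (adjusted p = 0.0590) without the second kd2 library. Neither SKA1 (adjusted p = 0.0531, edgeR) nor SPC25 (adjusted p = 0.0607) was called when only the knockdown libraries were fitted.

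The 12 members with no call between the knockdowns included CENPA (-0.31, SE 0.25), CENPE (-0.31, SE 0.20), NUF2 (0.14, SE 0.14), BIRC5 (0.09, SE 0.14) and AURKB (0.04, SE 0.20). With library totals alone NUF2 was called higher in kd2 (0.32, adjusted p = 0.0490, edgeR). In these 5, as reported, the difference was not detectable beyond the spread between libraries, which does not show that the levels were the same. The 4 members lower in kd2 were CENPT (-0.71, SE 0.09, adjusted p = 3.87e-06, edgeR), PMF1 (-0.47, SE 0.12, adjusted p = 0.00314), NSL1 (-0.18, SE 0.06, adjusted p = 0.0147) and MAD1L1 (-1.65, SE 0.63, adjusted p = 0.0297), all of them outside the class lower in both knockdowns. Of these, NSL1 turned to 0.01 with library totals alone and was not called without the first kd1 library (-0.18, adjusted p = 0.0716, edgeR) or the second (-0.17, adjusted p = 0.0881). PMF1 was not called without the second kd1 library (-0.28, adjusted p = 0.0801, edgeR), nor once GC content and length were corrected for (-0.08, adjusted p = 0.542). The call of MAD1L1, with at most 16 counts a library, was lost without any one of the 6 libraries, with library totals alone, with the GC and length correction, by DESeq2 and without a filter. The other 5 of the 9, CENPQ, MIS12, SKA2, ZW10 and BUB3, were higher in kd2, BUB3 by 0.20 (SE 0.05), which turned to -0.15 once GC content and length were corrected for.

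**Figure D4:**
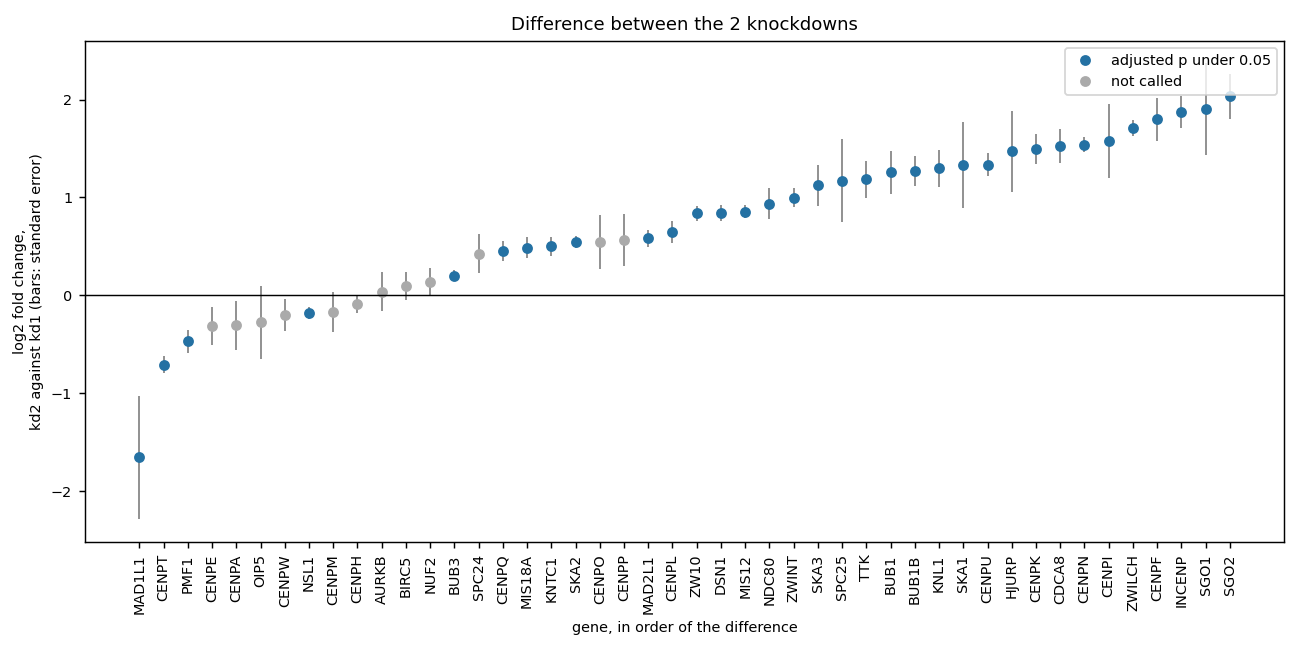
Log2 fold change of each of the 46 genes in kd2 against kd1, in order of size, with bars for the standard error (edgeR). Blue points are the 34 genes called at an adjusted p under 0.05, of which 30 lie above 0, and grey points are the 12 without a call.

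Other genes that act at the centromere or with the kinetochore moved in both directions. Of 13 further centromere and kinetochore genes, 9 were lower and 3 higher in each knockdown, and their medians were -0.59 in kd1 and -0.64 in kd2. Over all genes tested, 39.8% were lower and 38.2% higher in kd1, and 36.9% and 36.5% in kd2, with medians of -0.03. KIF2C, a kinesin that takes microtubule ends apart, fell most, with log2 fold changes of -4.90 (SE 0.16) and -5.17 (SE 0.17), while CENPX, a histone-fold partner of CENPT and CENPW, rose by 1.03 (SE 0.08) and 0.36 (SE 0.08), and CENPB, which binds centromeric DNA, by 1.02 (SE 0.07) and 0.85 (SE 0.07). Of 9 genes of the Nup107-Nup160 complex, a nuclear pore part that also sits on kinetochores, 6 were lower and 1 higher in each knockdown. NUP160 had log2 fold changes of -1.78 and -0.91, and SEC13, which also coats transport vesicles, was 2.83-fold and 2.69-fold higher.

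The target of the checkpoint, the anaphase-promoting complex, also held genes that moved either way. Of 23 genes of the complex and its partners, 12 were lower and 9 higher in kd1, and 13 were lower and 8 higher in kd2, with medians of -0.40 and -0.45. The shares of all genes tested were 39.8% lower and 38.2% higher in kd1 and 36.9% and 36.5% in kd2, so the share that was higher lay near that of all genes. ESPL1, separase, fell most, at -6.77 (SE 0.12) and -5.02 (SE 0.10), followed in kd1 by UBE2C (-5.17), CCNB1 (-5.09) and CDC20 (-4.93), the activator that Mad2 binds. Core subunits were among the genes that rose, with ANAPC10 at 1.94 (SE 0.15) and 1.57 (SE 0.15) and ANAPC13 at 1.22 (SE 0.07) and 1.63 (SE 0.07). The pair that takes Mad2 complexes apart split, as the ATPase gene TRIP13 was 16.0-fold and 6.15-fold lower and its adaptor MAD2L1BP rose by 1.33 (SE 0.07) and 0.64 (SE 0.07).

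Of 12 kinases and phosphatase subunits of the kinetochore, 5 were lower and 6 higher in kd1, and 4 were lower and 8 higher in kd2, with medians of 0.40 and 0.43. Among all genes tested 39.8% were lower and 38.2% higher in kd1, and 36.9% and 36.5% in kd2, so the shares that were lower lay near those of all genes. Both kinases fell, PLK1 with -4.56 (SE 0.15) and -3.29 (SE 0.13) and HASPIN, which creates the histone mark that BIRC5 reads, with -4.72 (SE 0.27) and -2.79 (SE 0.21). PPP2R5B, a regulatory subunit of the phosphatase PP2A, rose most, by 1.72 (SE 0.07) and 1.34 (SE 0.07), and PPP2R5E was called in opposite directions, at -0.67 (SE 0.06) and 0.42 (SE 0.06).

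Of 13 genes of the DREAM, MYBL2 and FOXM1 regulators, known to act through CHR elements, 9 were lower and 1 higher in kd1, and 7 were lower and 4 higher in kd2, with medians of -0.48 and -0.33. Beside these stand 39.8% and 36.9% lower and 38.2% and 36.5% higher among all genes tested, and the 4 higher in kd2 are near that share. FOXM1 had -5.12 (SE 0.11) and -3.27 (SE 0.09) and MYBL2 had -4.46 (SE 0.11) and -3.46 (SE 0.10), both activators of mitotic genes. The DREAM pocket proteins fell too, RBL1 with -2.68 (SE 0.14) and -2.07 (SE 0.13) and RBL2 with -2.55 (SE 0.09) and -1.35 (SE 0.09). Within the MuvB core, LIN9 had -1.77 and -1.45, RBBP4 and LIN37 were not called, and LIN52 and LIN54, the subunit that binds CHR letters, were called lower in kd1 (-0.27 and -0.48) and higher in kd2 (0.35 and 0.35). E2F4, the main E2F of the DREAM complex, had 0.02 in kd1, without a call, and 0.20 in kd2, and E2F5 rose by 0.58 and 0.60. TFDP1 and TFDP2, the partners of E2F proteins, had -0.66 and -0.45 in kd1, and -0.43 and -0.33 in kd2.

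In the same libraries, the luminal markers moved in both directions. KLK3 had log2 fold changes of -3.24 and -2.36, while FOLH1 had 1.26 and 1.06. HOXB13 was called in opposite directions, at 0.49 and -0.85. Of the 9 markers of other cell types, 4 passed the filter, and 2 of them were higher in kd1 and 3 in kd2, none lower, beside 38.2% and 36.5% of all genes tested that were higher. Counts over 4 genes are too few to set apart from these shares.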

How the data were processed

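RNA of 22Rv1 cells in 6 libraries was measured by RNA-seq. The authors used AdapterRemoval for trimming, STAR for alignment to hg38 and SAMtools for sorting, and deposited raw counts of reads per gene symbol. The submitters' processing notes list FastQC 0.11.9, STAR 2.7.9a and HTSeq 0.13.5; the annotation, the use of strand and the choice of poly(A) isolation or rRNA removal are not given in the sources used here. The precision of low values is set by the totals, from 26844128 to 38193748 counts.

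Samples were grouped by their labels. Tests on the counts used edgeR 4.0.16 under R 4.3.3 (TMM, filterByExpr, quasi-likelihood test without robust estimation, one fit of 3 groups with 3 residual degrees of freedom), with Benjamini-Hochberg adjustment over the 16510 genes tested. The standard error (SE) was computed from the log2 fold change and the square root of F. The fit pools the spread of the 3 groups, which differed. Chi-square per gene between the libraries of a group was 2.41 in control cells, 4.14 in kd1 and 11.6 in kd2. An SE or p-value is thus not specific to the groups compared. RPKM used GENCODE exon lengths. The functions were tested on simulated data. Promoters came from RefSeq (GRCh38.p14), and 9 members were not matched there.

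Results for 2 genes of the luminal list are not reported here. The members and all lists were chosen with earlier results of these data known. Values per library are given, in each role group, for the largest fall and for the change nearest to 0 or the largest rise, for each member not lower in both knockdowns, for each whose difference between the knockdowns was opposite to its complex, and for some others. Genes outside the 46 come from the other lists, each by its counts, its largest fall and rise and its members called in opposite directions, with some others named after their values were seen and the regulators named freely. Alternatives were DESeq2 size factors, library totals alone, lowess fits that remove trends with GC content and exon length (span 0.3), a block for the replicate number, fits of only the groups compared, the Wald test of DESeq2 1.42.0, leaving out each library, a minimal fold change of 1.5, a minimum of 10 counts in every library, and no filter at all. Figures were drawn with matplotlib 3.10.9.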

Additional observations from a re-analysis of the deposited data

Results flagged for a closer look

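The knockdowns moved 2 members in opposite directions, with a called difference between them. For CENPT, kd2 against kd1 gave -0.71 on the log2 scale (edgeR, adjusted p = 3.87e-06), with both kd1 libraries above and both kd2 libraries below the controls. The rise of CENPT in kd1 was not called with library totals alone (0.01, adjusted p = 0.937, edgeR). It was also not called once GC content and length were corrected for (0.16, adjusted p = 0.0779, edgeR). For MIS12 the same comparison gave 0.85 (edgeR, adjusted p = 2.78e-08), with the libraries on the opposite sides of the controls. Both genes overlap others on the opposite strand, and the part of those overlaps was not tested.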

How the results depend on the processing

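The number of members lower than in control cells was within 1.5 times the reported count under every alternative run, between 37 and 42 in kd1 and between 33 and 39 in kd2, and the median of the members lay between -4.26 and -3.43 and between -2.98 and -2.66. The small counts moved. Members higher in kd1 (3) numbered 0 with library totals alone and 0 with a fold change of at least 1.5. Members higher in kd2 (2) numbered 4 once GC content and length were corrected for and 0 with that fold change. Members lower in kd2 than in kd1 (4) numbered 2 with library totals alone and 2 with that fold change. Leaving out each library in turn gave 39 to 41 lower in kd1 and 38 in kd2, 2 to 3 higher in kd1 and 2 to 3 in kd2, and 27 to 31 higher and 1 to 4 lower between the knockdowns. The lowest of these, 1 and 2, came without the second and the first kd1 library.

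Directions turned for NSL1 in kd1 (-0.12) and between the knockdowns (0.0064) with library totals alone, and once GC content and length were corrected for for PMF1 in kd1 (-0.17), BUB3 in kd1 (0.34), CENPQ in kd2 (-0.27) and BUB3 between the knockdowns (-0.15). The cause was not tested. Library totals alone moved the median of all genes to -0.38 in kd1, -0.20 in kd2 and 0.21 between the knockdowns. They changed the split of higher and lower genes from 6310 and 6572 to 4596 and 8420 in kd1, and from 5767 and 5588 to 7065 and 4506 between the knockdowns.

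Libraries share replicate numbers only. Deviations of libraries with the same number correlated at 0.02, -0.07 and -0.15, and with the replicate block 40 members were lower and 3 higher in kd1, 38 and 2 in kd2, and 30 were higher and 4 lower between the knockdowns. At these depths, differences in genes with few counts, such as MAD1L1 or SPC25, are the least certain.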
